A study of Mus musculus with 12 samples.

Results

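The 41 genes described here are those of the skeletal muscle fibre in the venous RNA-seq table, taken by name from a fixed member list, out of 43346 genes. They comprise 14 fast fibre genes, 9 slow fibre genes, 9 fibre genes of both types, 4 metabolic enzymes, 2 developmental myosins and 3 satellite cell and myogenic factor genes. All 41 names were found. The libraries came from mouse veins harvested 7 days after surgery, 6 labelled sham, from the jugular vein, and 6 labelled AVF-CKD, from the vein side of the AVF. These letters are left unexplained by the labels and are taken to mean arteriovenous fistula, a surgical join of artery and vein, and chronic kidney disease. The sources used here do not give strain, genotype, age, the kidney model or the artery joined to the vein. On this reading surgery, blood flow, kidney disease and possibly the vessel itself differ together between the groups and cannot be told apart. Nothing in the labels says that each library is a separate animal, and the p-values therefore speak only of spread from library to library.

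Skeletal muscle fibres contract when calcium released from the sarcoplasmic reticulum binds troponin and lets myosin heads pull on actin. Mouse fibres differ in the myosin heavy chain they use. The chains of fast fibres are IIb (Myh4), IIx (Myh1) and IIa (Myh2), slow fibres use the chain that the heart also makes (Myh7), and immature or regenerating fibres make embryonic (Myh3) and perinatal (Myh8) chains. Fast and slow fibres likewise have their own troponins, light chains, calsequestrins and calcium pumps. Satellite cells, the stem cells of muscle, carry Pax7, and activate Myod1 and then Myog when they divide, differentiate and fuse. A vein wall is built of endothelium, smooth muscle and connective tissue and has no striated fibres of its own, apart from the cardiac muscle that sleeves some veins near the heart. The neck muscles lie next to the jugular vein.

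Libraries held 38653830 to 60142016 counts. Markers of a vessel wall were present in all 12 libraries, with endothelial Pecam1 at 297 to 518 CPM (counts per 1e6 of the TMM-scaled library size) and smooth muscle Acta2 at 473 to 1144 CPM. Striated muscle RNA was present in every library as well. The members together took 0.860% ± 0.662 (SD, n = 6) of the counts in sham and 0.750% ± 0.699 (SD, n = 6) in the fistula group, less apart than libraries of 1 group. By library the share was 0.597%, 0.761%, 0.0856%, 2.07%, 0.959% and 0.686% in sham 1 to 6, and 0.765%, 2.03%, 0.422%, 0.211%, 0.143% and 0.930% in AVF-CKD 1 to 6. Sham 4 and AVF-CKD 2 were the richest, and sham 3, AVF-CKD 5 and AVF-CKD 4 the poorest, so each group held both a rich and a poor library. Sham 5 had a middling total but stood apart from the other sham libraries in slow, developmental and myogenic genes. Fewer muscle cells and less RNA per muscle cell cannot be told apart in such bulk samples.

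Most members followed 1 of 2 patterns across libraries, and the stretches upstream of 3 genes of each pattern are printed here as the sequence context of those genes. They are the 250 bases before the RefSeq start on GRCm38.p6, read 5′ to 3′ on the gene's strand. Capitals mark matches on either strand to CAGCTG, an E-box form that myogenic factors can bind, to the MEF2 motif, bound by myocyte enhancer factors, and to the CArG box, bound by serum response factor.
Myh4, chr11:67237562-67237811, plus strand: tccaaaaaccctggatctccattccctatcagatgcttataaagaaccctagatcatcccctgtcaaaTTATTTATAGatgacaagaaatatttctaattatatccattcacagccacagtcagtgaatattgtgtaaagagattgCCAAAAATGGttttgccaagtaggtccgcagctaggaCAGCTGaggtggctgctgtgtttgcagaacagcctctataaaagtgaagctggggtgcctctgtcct
Acta1, chr8:123894776-123895025, minus strand: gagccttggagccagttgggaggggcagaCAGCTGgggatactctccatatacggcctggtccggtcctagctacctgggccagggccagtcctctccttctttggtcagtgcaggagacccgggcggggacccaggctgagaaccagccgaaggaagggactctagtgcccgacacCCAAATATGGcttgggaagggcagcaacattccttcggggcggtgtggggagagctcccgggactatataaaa
Ckm, chr7:19410844-19411093, plus strand: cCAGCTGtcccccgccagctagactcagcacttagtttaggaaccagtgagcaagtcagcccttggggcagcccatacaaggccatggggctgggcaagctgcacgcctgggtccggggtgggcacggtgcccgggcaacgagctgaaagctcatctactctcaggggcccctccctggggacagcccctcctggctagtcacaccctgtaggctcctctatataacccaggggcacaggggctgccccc
Tnni1, chr1:135799171-135799420, plus strand: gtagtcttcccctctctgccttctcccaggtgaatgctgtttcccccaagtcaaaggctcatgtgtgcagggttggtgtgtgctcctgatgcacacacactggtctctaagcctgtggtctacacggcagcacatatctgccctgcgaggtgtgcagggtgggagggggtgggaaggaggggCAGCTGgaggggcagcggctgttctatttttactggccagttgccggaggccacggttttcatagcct
Myh3, chr11:67078050-67078299, plus strand: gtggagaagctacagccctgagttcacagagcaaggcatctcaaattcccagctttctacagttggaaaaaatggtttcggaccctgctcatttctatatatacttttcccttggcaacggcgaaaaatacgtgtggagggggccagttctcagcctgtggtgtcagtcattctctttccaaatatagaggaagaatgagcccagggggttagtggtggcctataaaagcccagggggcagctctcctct
Myog, chr1:134289754-134290003, plus strand: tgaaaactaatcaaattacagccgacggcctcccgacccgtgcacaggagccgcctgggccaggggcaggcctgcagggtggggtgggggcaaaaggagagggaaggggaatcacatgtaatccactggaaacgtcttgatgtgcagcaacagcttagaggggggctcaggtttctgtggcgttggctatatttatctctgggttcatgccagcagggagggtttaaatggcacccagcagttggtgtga

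Myh4, Acta1 and Ckm belong to the adult fast pattern, and Tnni1, Myh3 and Myog to the pattern of developmental and slow genes. In Myh4 the stretch held a MEF2 match that begins 182 bases before the start, a CArG box at 104 and a CAGCTG at 67. Acta1 held a CArG box at 73 bases and a CAGCTG at 221. Tnni1 held a CAGCTG at 68 bases, and neither Myh3 nor Myog had an exact match to any of the 3 motif patterns within these bases. Sites that depart from the patterns were not counted, so a stretch without a match may still hold such a site. RefSeq gave such a stretch for 33 of the 41 members. Among them 13 (39.4%) held CAGCTG, against 13.0% of all 32851 promoters of the same length. The MEF2 motif was in 8 (24.2%, against 2.92%) and the CArG box in 3 (9.09%, against 1.47%). The general E-box CANNTG, which includes CAGCTG, was in 28 (84.8%, against 66.2%), and TATAAA, which can overlap the MEF2 motif, in 9 (27.3%, against 12.4%). A match describes the letters and does not show that a factor binds there.

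**Figure D1:**
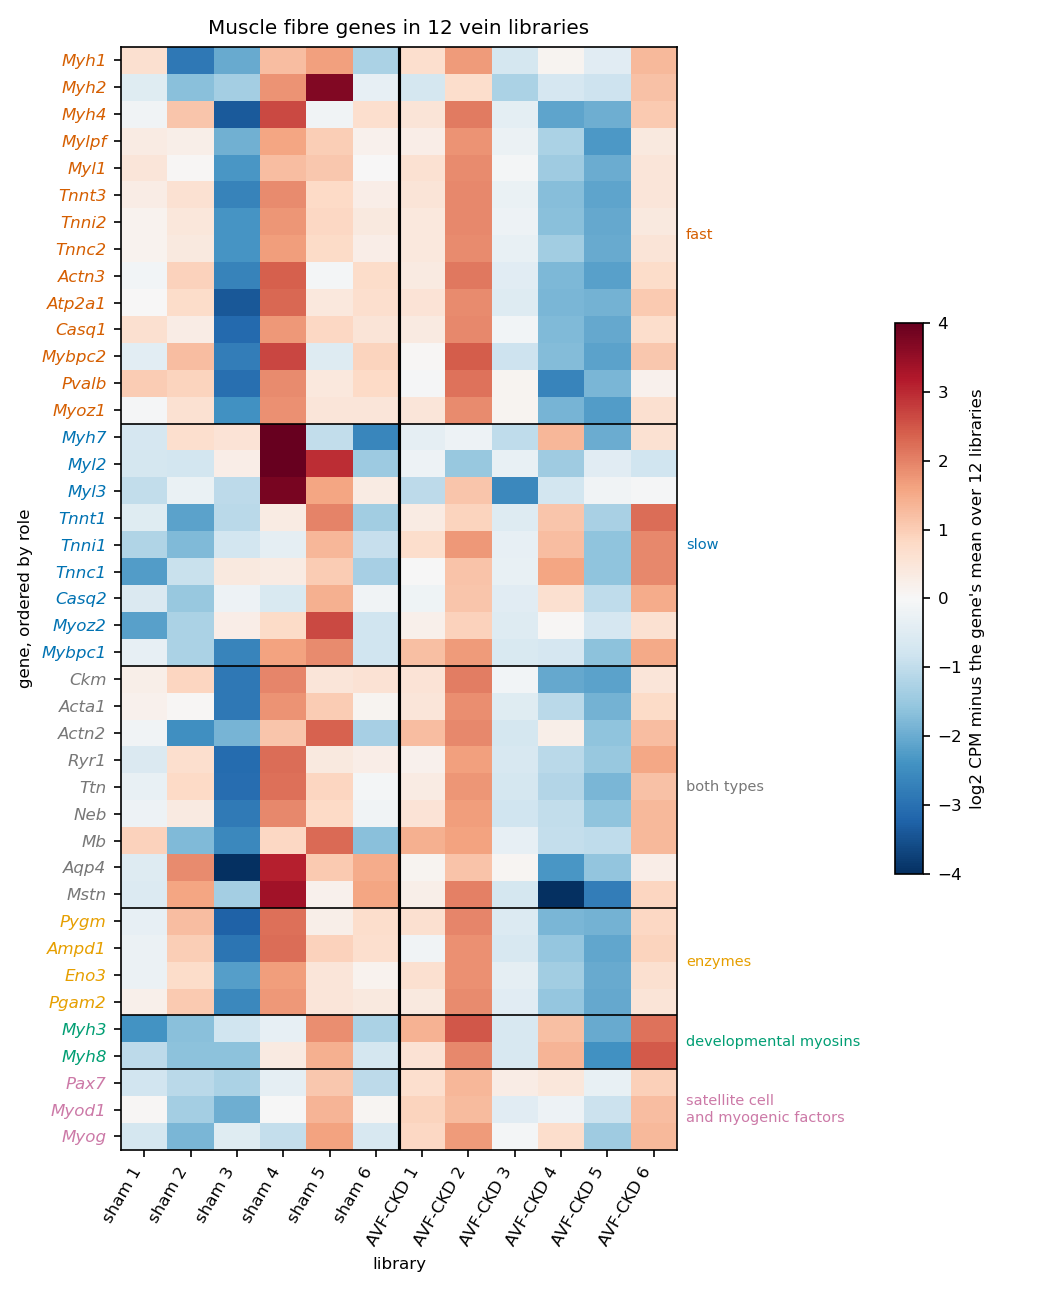
Heat map of log2 CPM of the 41 members (rows, ordered by role) in the 12 libraries (columns, sham left of the black line and AVF-CKD right of it), each gene centred on its own mean, with colours ending at 4 log2 units in either direction. Most fast, shared and enzyme genes are red in sham 4 and AVF-CKD 2 and blue in sham 3, AVF-CKD 4 and AVF-CKD 5. Myh1 and Actn2 are not blue in AVF-CKD 4. Most slow and developmental genes are red in sham 5, AVF-CKD 4 and AVF-CKD 6.

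The adult fast myosins differed between libraries by more than an order of magnitude, and the groups overlapped for each. Myh4, the IIb heavy chain of the fastest mouse fibres (chromosome 11, 67238029 to 67260446), ran from 55.4 to 3525 CPM in sham (median 709) and from 132 to 2416 CPM in AVF-CKD (median 627). Its highest sham value was in sham 4 and its lowest in sham 3, a 63.6-fold span over the 12 libraries. AVF-CKD over sham gave a log2 fold change of -0.40 ± 0.84 (SE; adjusted p = 0.913 by edgeR). Myh1, the IIx chain (67200052 to 67224575), ran from 19.6 to 444 CPM in sham (median 141) and from 87.2 to 460.1 CPM in AVF-CKD (median 190.0). Its lowest value was in sham 2, a library in which Myh4 was the second highest of the sham group, so these neighbouring genes parted there. For Myh1 the log2 fold change was 0.31 ± 0.70 (SE; adjusted p = 0.922 by edgeR). Myh2, the IIa chain of fast oxidative fibres (67171027 to 67197517), ran from 6.13 to 254 CPM in sham (median 14.6) and from 8.17 to 43.7 CPM in AVF-CKD (median 12.05). The value of 254 CPM came from sham 5, and the other sham libraries reached at most 68.3 CPM. Its log2 fold change was -1.63 ± 0.88 (SE; adjusted p = 0.588 by edgeR), and without sham 5 it was -0.17 ± 0.65 (adjusted p = 0.949). Counts of these myosins are uncertain between paralogs, because 32.1% of the 50-base stretches of Myh1, 28.9% of those of Myh2 and 18.9% of those of Myh4 occur in another gene of the cluster.

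The other fast genes were high and low in the same libraries as Myh4. Mylpf, the fast regulatory light chain, ran from 90.9 to 1009 CPM in sham (median 412) and from 69.03 to 1195 CPM in AVF-CKD (median 349). Its log2 fold change was -0.23 ± 0.62 (SE; adjusted p = 0.94 by edgeR). Tnnt3, the fast troponin T that ties troponin to tropomyosin (chromosome 7, 142498836 to 142516009), ran from 61.1 to 1448 CPM in sham and from 90.2 to 1482 CPM in AVF-CKD, with medians of 537 and 435. AVF-CKD 2, at 1482 CPM, lay far above the other 5 libraries of its group, which reached at most 554 CPM. For Tnnt3 the log2 fold change was -0.26 ± 0.69 (SE; adjusted p = 0.938 by edgeR). Tnni2, the fast inhibitory troponin (142441808 to 142444410), ran from 34.9 to 602 CPM in sham and from 42.8 to 669 CPM in AVF-CKD, and its log2 fold change was -0.22 ± 0.66 (SE; adjusted p = 0.943 by edgeR). Myl1 (fast essential light chain), Tnnc2 (fast troponin C), Actn3 (Z-disc actinin of fast fibres), Atp2a1 (fast calcium pump), Casq1 (fast calsequestrin), Mybpc2 (fast myosin binding protein C), Pvalb (the calcium buffer parvalbumin) and Myoz1 (a Z-disc protein) spanned 18.6-fold for Myl1 to 51.0-fold for Atp2a1 over the 12 libraries. For Pvalb, sham 3 had 31.7 CPM and AVF-CKD 4 40.6 CPM, against 949.9 CPM for sham 4 and 1159 CPM for AVF-CKD 2. Of the 14 fast genes 2 had a log2 fold change above 0 and 12 below, with a median of -0.24, and none passed the test. Tnnc2 shares 74.0% of its exonic bases with Ube2c and Atp2a1 21.9% with Rabep2, and strand was not marked, so their counts may hold reads of those genes.

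Genes that all fibres use had the same library profile. Ckm, the creatine kinase that buffers ATP (chromosome 7, 19411094 to 19421583), ran from 54.2 to 1548 CPM in sham (median 572) and from 89.6 to 1655 CPM in AVF-CKD (median 459.9). Its values in order were 463, 724, 54.2, 1548, 549.9 and 593 CPM in sham 1 to 6 and 579.9, 1655, 364, 96.7, 89.6 and 555 CPM in AVF-CKD 1 to 6. The highest library of each group was about level with that of the other group. Ckm had a log2 fold change of -0.24 ± 0.74 (SE; adjusted p = 0.946 by edgeR), and 15.5% of its exonic bases are shared with the gene model A930016O22Rik. Acta1, the skeletal actin of the thin filament (chromosome 8, 123891767 to 123894736), ran from 99.9 to 2481 CPM in sham (median 784) and from 195 to 2630.2 CPM in AVF-CKD (median 763), and its log2 fold change was -0.10 ± 0.68 (SE; adjusted p = 0.976 by edgeR). Ryr1, the calcium release channel, and Ttn and Neb, the giant rulers of the thick and thin filaments, spanned 27.2-fold for Neb to 40.2-fold for Ryr1. Per length, Acta1 was the most abundant member, with a median of 474 RPKM over the 12 libraries, followed by Mylpf (395 RPKM) and Ckm (336 RPKM). The enzymes Pygm (glycogen phosphorylase), Eno3 and Pgam2 (late glycolysis) and Ampd1 (AMP deaminase) had medians of 37.7, 86.0, 41.6 and 7.04 RPKM. Their log2 fold changes ran from -0.57 for Ampd1 to -0.06 for Eno3, and none of the 4 passed the test.

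Mb and Actn2, genes of both fibre types, departed from that profile. Mb, the oxygen store myoglobin of oxidative fibres (chromosome 15, 77015489 to 77050670), stood at 113, 17.5, 9.97, 106, 288 and 18.6 CPM in sham 1 to 6 and from 29.2 to 183 CPM in AVF-CKD (median 96.4). Sham 5 was the highest and sham 2 and sham 6, rich in Myh4, were near the bottom with sham 3. Per 1000 CPM of Ckm there were 24.2 to 523 CPM of Mb in sham and 111 to 326 in AVF-CKD. For Mb the log2 fold change was 0.11 ± 0.78 (SE; adjusted p = 0.979 by edgeR), and 31.9% of its exonic bases are shared with other gene models. Actn2, the Z-disc actinin of all fibres, ran from 2.91 to 83.6 CPM in sham and from 5.22 to 61.2 CPM in AVF-CKD, with its lowest value in sham 2 and its highest in sham 5. Aqp4 and Mstn, both low in counts, did vary with Ckm (r = 0.918 and 0.875). Aqp4, the water channel of fast fibre membranes, ran from 0 to 9.27 CPM in sham (median 2.56) and from 0.171 to 2.30 CPM in AVF-CKD (median 1.11). It had 0 counts in sham 3, which allows up to 0.0575 CPM, and 400 counts in sham 4. Mstn, the growth inhibitor myostatin, ran from 0.307 to 9.15 CPM in sham and from 0 to 3.59 CPM in AVF-CKD, where AVF-CKD 4 had 0 counts (up to 0.0641 CPM). Its median was 1.82 in sham and 0.765 in AVF-CKD, and the groups overlapped. Their log2 fold changes were -1.61 ± 0.87 (SE; adjusted p = 0.587 by edgeR) for Aqp4 and -1.27 ± 0.96 (SE; adjusted p = 0.72 by edgeR) for Mstn. Without sham 4, the highest library of both, they were -0.91 for Aqp4 and -0.35 for Mstn.

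The make-up of the myosin heavy chains also differed by library. Myh4 took 69.2%, 97.5%, 52.2%, 89.6%, 41.8% and 91.6% of the summed RPKM of the 6 heavy chain genes in sham 1 to 6. In AVF-CKD 1 to 6 it took 74.8%, 80.6%, 80.4%, 37.6%, 56.4% and 70.2%. Sham 2, 4 and 6 were thus mostly of the IIb type, with Myh1 at 1.46%, 8.13% and 5.71%, whereas Myh1 took 28.0%, 31.2% and 34.2% in sham 1, 3 and 5. In AVF-CKD the Myh1 share was 14.5% to 41.5%, and its highest values were in AVF-CKD 4 and AVF-CKD 5, libraries with little muscle RNA. Myh2 took 17.5% in sham 5 and at most 5.96% in any other library. The developmental chains together took 0.645% to 10.5% in sham (mean 3.49% ± 4.08, SD, n = 6) and 2.11% to 17.97% in AVF-CKD (6.58% ± 5.90, SD, n = 6), a difference smaller than the spread within either group. Their share was high in AVF-CKD 4 and sham 3, which are poor in muscle RNA, but not in AVF-CKD 5.

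**Figure D2:**
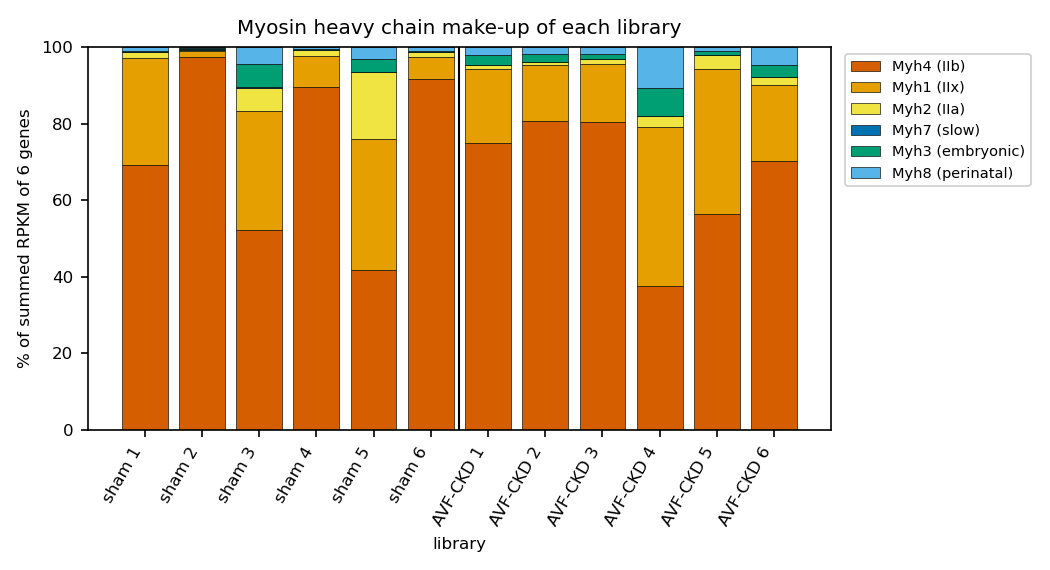
Stacked bars of the percentage that each of 6 myosin heavy chain genes takes of their summed RPKM in each library, sham left of the line and AVF-CKD right of it. Myh4 ranges from 37.6% in AVF-CKD 4 to 97.5% in sham 2, and Myh7 is too small to see, at 0.215% or less.

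The defining slow fibre genes were close to absent. Myh7, the slow heavy chain (chromosome 14, 54970688 to 54994634), had 0 to 28 counts in 11 libraries and 277 counts (6.42 CPM) in sham 4. The library with 0 was sham 6, where up to 0.0623 CPM is allowed. Myl2 and Myl3, the slow light chains, had 287 and 147 counts in sham 4 and 119 and 32 in sham 5, and at most 19 in any other library. These 3 genes fell below the count filter and were not tested. Myh7 took 0.0653% ± 0.0958 (SD, n = 6) of the adult heavy chain RPKM in sham and 0.0323% ± 0.0555 (SD, n = 6) in AVF-CKD, values that do not differ beyond their spread. Of its 50-base stretches 28.2% occur in other genes, Myh6 among them.

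The other 6 slow genes were more abundant than Myh7 and did not follow it. Their medians over the 12 libraries ran from 1.19 RPKM for Myoz2 to 6.82 RPKM for Mybpc1, against 0.0172 RPKM for Myh7. Tnni1, the slow inhibitory troponin that immature fibres also make (chromosome 1, 135779434 to 135810989), stood at 5.29, 3.58, 7.28, 9.50, 30.6 and 6.48 CPM in sham 1 to 6. In AVF-CKD 1 to 6 it stood at 20.2, 41.2, 9.82, 28.7, 3.97 and 46.9 CPM. All AVF-CKD libraries except AVF-CKD 5 exceeded every sham library except sham 5, and AVF-CKD 5 was the second lowest of the 12. Between groups Tnni1 differed by a log2 fold change of 1.27 ± 0.61 (SE; adjusted p = 0.546 by edgeR). Tnnt1, the slow troponin T (chromosome 7, 4504570 to 4516382), ran from 2.53 to 45.0 CPM in sham (median 6.65) and from 4.51 to 53.4 CPM in AVF-CKD (median 17.6), with a log2 fold change of 0.66 ± 0.71 (SE; adjusted p = 0.814 by edgeR). Casq2, the calsequestrin of slow and cardiac muscle (chromosome 3, 102086415 to 102146514), ran from 4.94 to 37.9 CPM in sham (median 10.9) and from 6.96 to 39.4 CPM in AVF-CKD (median 17.2), with a log2 fold change of 0.49 ± 0.50 (SE; adjusted p = 0.805 by edgeR). In each of these 3 genes sham 5 was far above the other sham libraries and inside the AVF-CKD range. Tnnc1 (slow and cardiac troponin C), Myoz2 (a slow Z-disc protein) and Mybpc1 (slow myosin binding protein C) had log2 fold changes of 0.97, -0.58 and 0.20. Of the 6 slow genes tested 5 lay above 0 (median 0.57), and none passed the test. Tnni1 took 0.604% to 7.99% of the summed RPKM of Tnni1 and Tnni2 in sham and 2.50% to 17.6% in AVF-CKD. The fast isoform was thus the more abundant of the pair in every library.

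Both developmental myosins had higher medians in AVF-CKD, with overlapping groups. Myh3, the embryonic chain (chromosome 11, 67078300 to 67102291), stood at 2.11, 3.53, 6.42, 8.87, 40.8 and 4.67 CPM in sham 1 to 6. In AVF-CKD 1 to 6 it stood at 29.3, 62.3, 7.26, 25.8, 2.74 and 50.6 CPM. Sham 5 lay with AVF-CKD 1, 2, 4 and 6, while AVF-CKD 3 and 5 lay with the other sham libraries. Between groups Myh3 had a log2 fold change of 1.43 ± 0.80 (SE; adjusted p = 0.602 by edgeR). Myh8, the perinatal chain (67277124 to 67308634), ran from 9.19 to 76.7 CPM in sham (median 15.9) and from 5.40 to 157 CPM in AVF-CKD (median 58.4). Its log2 fold change was 1.31 ± 0.73 (SE; adjusted p = 0.598 by edgeR), and 21.4% of its 50-base stretches occur in other myosins.

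Of the satellite cell and myogenic factor genes Pax7 was the least abundant, with a median of 0.0628 RPKM, against 0.999 RPKM for Myod1 and 3.48 RPKM for Myog. Pax7, the satellite cell factor (chromosome 4, 139737062 to 139833528), had 8 to 14 counts in sham 1 to 4 and sham 6 and 44 in sham 5, against 15 to 45 in AVF-CKD. On the CPM scale it ran from 0.153 to 0.954 CPM in sham (median 0.211) and from 0.34 to 1.14 CPM in AVF-CKD (median 0.653), and every AVF-CKD library exceeded the 5 sham libraries other than sham 5. For Pax7 the log2 fold change was 1.05 ± 0.45 (SE; adjusted p = 0.503 by edgeR), with an unadjusted p of 0.0372 in that test. Myod1, the factor that commits cells to the muscle lineage (chromosome 7, 46376474 to 46379092), ran from 0.518 to 5.51 CPM in sham and from 1.16 to 5.22 CPM in AVF-CKD, with a log2 fold change of 0.50 ± 0.53 (SE; adjusted p = 0.814 by edgeR). Myog, the factor of myoblast differentiation (chromosome 1, 134289989 to 134292548), stood at 4.56, 2.06, 5.25, 3.78, 22.6 and 4.73 CPM in sham 1 to 6. It ran from 2.74 to 24.2 CPM in AVF-CKD (median 12.6), again with AVF-CKD 5 lowest. Myog had a log2 fold change of 0.85 ± 0.58 (SE; adjusted p = 0.688 by edgeR).

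Across all members, none passed the test between fistula and sham veins (edgeR quasi-likelihood test, adjusted p under 0.05). That is 0 of the 38 members tested, against 0% of 18965 genes. At an unadjusted p below 0.05 there was 1 member, Pax7 (2.63% of those tested), where 9.34% of all genes passed that mark. No member had groups that did not overlap, against 0.638% of all genes. Of the 38 members 14 had a log2 fold change above 0 (49.1% of all genes) and 24 below (50.9% of all genes), and their median of -0.15 stood beside -0.002 for all genes. The same median was 1.37 over the 2 developmental myosins and 0.85 over the 3 satellite cell and myogenic factor genes. DESeq2 also called 0 members, with 0.412% of genes called. These values do not show that the members were alike in the groups. Standard errors ran from 0.45 to 0.96, the 95% interval of 25 members reached past 2-fold in both directions, and 36 of the 38 were among the 500 most variable genes.

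**Figure D3:**
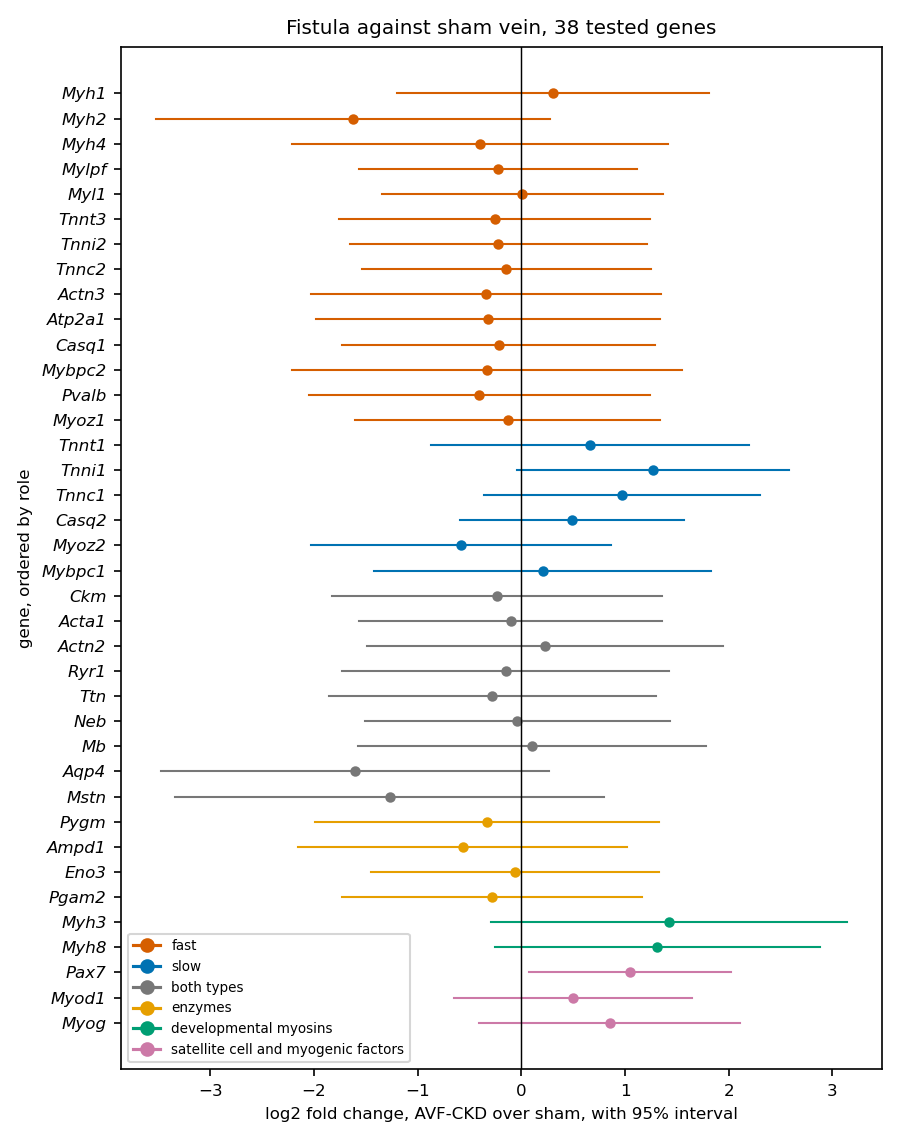
Points give the log2 fold change of AVF-CKD over sham for the 38 members tested, lines its 95% interval from the edgeR fit, and colours the role. Every interval but that of Pax7 spans 0, the fast genes cluster just below 0, and the developmental myosins, Tnni1 and Pax7 lie above 1.

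Single libraries decided several of these values. Leaving out sham 5 gave 7 members with higher and 1 with lower values at an unadjusted p below 0.05, where 6.13% of all genes were higher and 5.02% lower at that mark. The members with higher values were Pax7, Tnni1, Myh3, Myog, Myh8, Tnnt1 and Casq2, and the one with lower values was Myh7, which passed the count filter in that fit and rests on sham 4. None passed after adjustment (lowest edgeR adjusted p = 0.274, for Pax7). Sham 5 is the highest sham library for these 7 genes, so its omission raises their difference by construction and lends it no support. Each of the other 11 omissions gave 0 to 4 members with higher and 0 to 2 with lower values at that mark. The count of 4 came without AVF-CKD 5, where 5.66% of all genes were higher, and it was 0 without AVF-CKD 2, AVF-CKD 6 or AVF-CKD 1. Without sham 5 the log2 fold change was 2.54 ± 0.69 for Myh3, 1.97 ± 0.54 for Tnni1, 1.66 ± 0.46 for Myog and 1.68 ± 0.33 for Pax7. Over the 12 fits that each left out 1 library, Myh3 ran from 1.07 to 2.54, Tnni1 from 0.99 to 1.97, Myog from 0.58 to 1.66 and Pax7 from 0.86 to 1.68. For Ckm the same range was -0.96 to 0.22 and for Myh4 -1.05 to 0.41. Their lower ends came without AVF-CKD 2 and their upper ends without sham 4.

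Most members varied over the 12 libraries with 1 of 2 patterns. With Ckm, chosen as the reference after its values were seen, 21 of the 40 other members had a Pearson r of 0.9 or more (log2 CPM). Among them were 12 of the 14 fast genes and the 4 enzymes. How many of all genes reach that r with Ckm or with Myog was not computed. The counts therefore do not set the members apart from other genes. Tnnt3 had r = 0.993 with Ckm and a Spearman rho of 0.881 (permutation p = 1e-05, the smallest that 100000 permutations can give, and p = 0.00041). The adjusted values over the 79 relations computed were 6.58e-05 and 0.0018. Without sham 3 and AVF-CKD 5, the libraries farthest from the median of Ckm, r was 0.984. For Myh4 r was 0.979 and rho 0.958 (permutation p = 1e-05 for both; adjusted p = 6.58e-05 and 0.000132), and r was 0.962 without those libraries. Over the 21 genes r was 0.922 or more within sham and 0.896 or more within AVF-CKD (n = 6 each). Myh1 (r = 0.44, rho = 0.378; permutation p = 0.151 and 0.226) and Myh2 (r = 0.46, rho = 0.427; permutation p = 0.13 and 0.169) were the fast genes outside this pattern. The points of such a relation share library, depth and composition.

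The developmental myosins, Pax7, Myod1 and 5 of the 9 slow genes (Tnni1, Tnnt1, Tnnc1, Casq2 and Myoz2) had a higher r with Myog, a reference likewise chosen after its values were seen. With Myog, r was 0.959 and rho 0.930 for Tnni1 (permutation p = 1e-05 and 4e-05; adjusted p = 6.58e-05 and 0.000287) and 0.929 and 0.881 for Myh3 (permutation p = 7e-05 and 0.00034; adjusted p = 0.00023 and 0.00158). Without sham 5 and AVF-CKD 2, the libraries farthest from the median of Myog, these r were 0.951 and 0.891. Casq2 (r = 0.934), Myh8 (0.884), Pax7 (0.882), Tnnt1 (0.874) and Actn2 (0.832) were also close to it, with lower values for Tnnc1 (0.752) and Myoz2 (0.693). Some members followed neither reference. The slow genes Myh7, Myl2 and Myl3, low in counts in most libraries, had r of -0.055, -0.037 and 0.057 with Myog and of 0.233, 0.251 and 0.532 with Ckm. Mybpc1 was closer to Ckm (r = 0.755) than to Myog (r = 0.678). The reverse held for the fast genes Myh1 (r = 0.711 with Myog, 0.44 with Ckm) and Myh2 (0.552 and 0.46), and for Mb (0.679 and 0.613). Myog itself had r = 0.212 and rho = 0.105 with Ckm (permutation p = 0.504 and 0.749), and r = -0.0858 without the libraries farthest in Ckm. The patterns were farther apart within sham, where Myog and Ckm had r = -0.131, than within AVF-CKD, where they had r = 0.746 (n = 6 each). With so few libraries both values are uncertain. In sham, Myog was also far higher in sham 5, at 22.6 CPM, than in the others, at most 5.25 CPM. Within AVF-CKD the fast genes had r of 0.592 to 0.859 with Myog. The members most like Myog were thus not those of its role alone but included the slow genes Tnni1, Casq2 and Tnnt1.

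**Figure D4:**
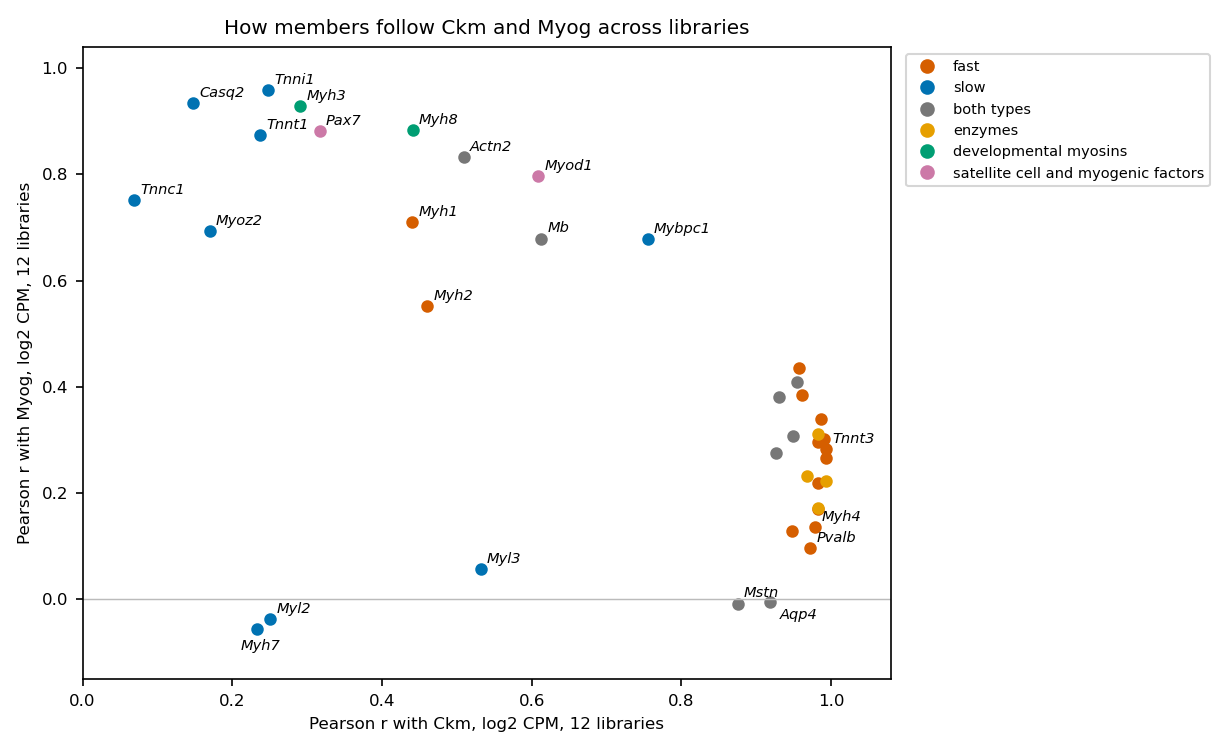
Each point is a member, with its Pearson r with Ckm on the horizontal axis and with Myog on the vertical axis, both on log2 CPM over 12 libraries and coloured by role. Fast and enzyme genes sit at the right with low r with Myog, Tnni1, Casq2 and Myh3 at the upper left, and Myh1, Myh2 and Mb between them.

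Set against Ckm, AVF-CKD 4 showed the contrast most plainly. This library had 96.7 CPM of Ckm, close to the 89.6 CPM of AVF-CKD 5, but 25.8 CPM of Myh3 against 2.74 CPM and 12.1 CPM of Myog against 2.74 CPM. Sham 4 and AVF-CKD 2, matched in Ckm at 1548 CPM and 1655 CPM, stood at 8.87 CPM and 62.3 CPM of Myh3 and 3.78 CPM and 24.2 CPM of Myog. Per 1000 CPM of Ckm, Myog ran from 2.44 to 96.9 CPM in sham and from 14.6 to 126 in AVF-CKD. The poorest library of sham, sham 3, had the highest of these ratios in its group. With the log2 CPM of Ckm as a term in the fit, a setting chosen after seeing the data, 2 members passed an unadjusted p of 0.05 (8.28% of all genes). They were Pax7, with a log2 fold change of 1.13 ± 0.41 (adjusted p = 0.545 by edgeR), and Mstn, with -1.06 ± 0.48 (adjusted p = 0.595). The median over the fibre members moved from -0.22 to 0.08 with this term, and 0 members were called. With the term and without sham 5, 11 members passed an unadjusted p of 0.05 (10.4% of all genes), of which 10 had higher values in AVF-CKD and Mstn lower, and again none was called (lowest edgeR adjusted p = 0.0976, for Pax7). That omission, chosen for its high values, sets the direction of the gain, and with the term and any other library left out 1 to 4 members passed that mark, 1 of them higher without AVF-CKD 2 and 1 without AVF-CKD 6.

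**Figure D5:**
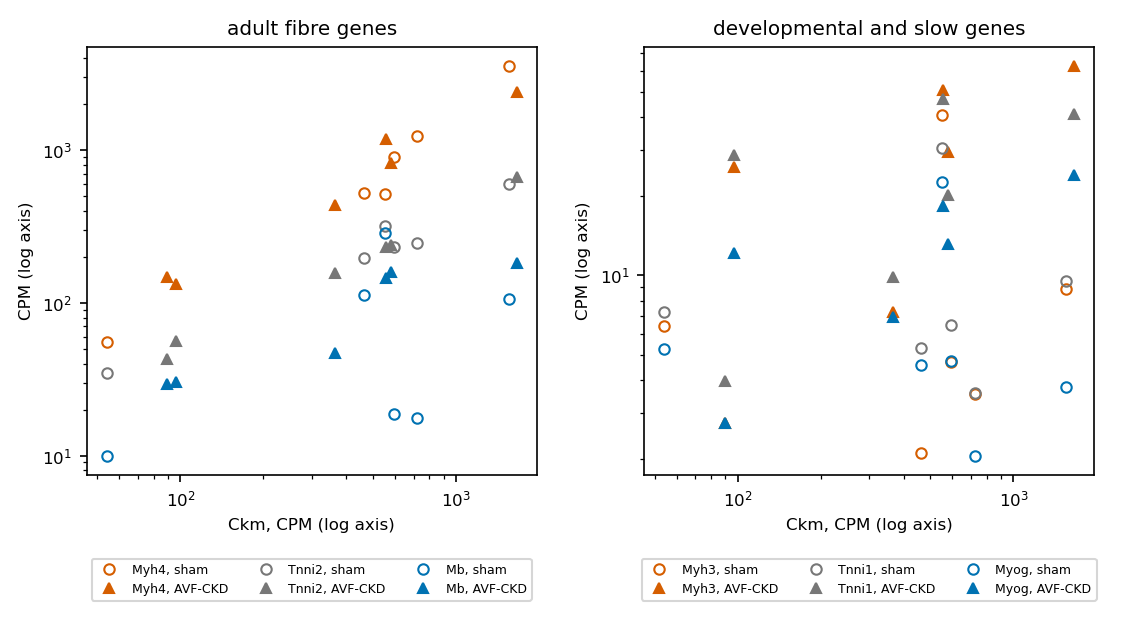
CPM of Myh4, Tnni2 and Mb (left) and of Myh3, Tnni1 and Myog (right) against the CPM of Ckm in the same library, both axes logarithmic, with open circles for the 6 sham and filled triangles for the 6 AVF-CKD libraries. Myh4 and Tnni2 lie along a line with Ckm in both groups, while the genes at the right differ widely between libraries of like Ckm, as between the sham and the AVF-CKD library with the most Ckm.

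Other genes of the muscle programme, taken from lists chosen with earlier results known, were read off the same fit, and none passed an adjusted p of 0.05. Over all genes 49.1% had a log2 fold change above 0 and 9.34% passed an unadjusted p of 0.05. Of 17 tested neuromuscular junction and denervation genes 16 lay above 0 (median 0.38) and 0 passed an unadjusted p of 0.05. The list re-uses the members Myh3 and Myog, and without them 14 of 15 lay above 0. Their most abundant gene Runx1, a transcription factor induced on denervation but also made by blood cells, had -0.16 ± 0.19 (edgeR adjusted p = 0.832). Chrng, the fetal acetylcholine receptor subunit, had 1.37 ± 0.66 (edgeR adjusted p = 0.549), and its sham mean of 1.43 ± 1.59 CPM compared with 3.68 ± 2.60 CPM for AVF-CKD (SD, n = 6 each). Like Myog, Chrng was highest of the sham libraries in sham 5 (4.56 CPM) and lowest of the AVF-CKD libraries in AVF-CKD 5 (0.771 CPM). Genes that vary together by library do not give independent directions, so the counts above 0 in these lists only describe them. Of 17 tested regeneration and fusion genes 15 lay above 0 (median 0.33), and 5 passed an unadjusted p of 0.05. Those 5, named after their values were seen, were Tnnt2 (1.26), Mymk (1.59), Mymx (1.40), Myf5 (1.55) and Myl4 (1.14), with edgeR adjusted p-values of 0.498 to 0.524. Mymk and Mymx encode the membrane proteins that fuse myoblasts, Myf5 is a myogenic factor of satellite cells, and Tnnt2 and Myl4 encode embryonic forms of troponin T and the light chain. Vcam1, the most abundant gene of that list and also an endothelial adhesion molecule, had 0.05 ± 0.14. Sarcomere and Z-disc genes had 14 of 29 above 0 (median -0.03), excitation-contraction coupling genes 9 of 19 (median -0.05) and atrophy and growth genes 8 of 17 (median -0.03), with 0 genes of these 3 lists at an unadjusted p below 0.05. Fibre type regulators had 8 of 15 above 0 (median 0.06) and 3 at that mark, Mef2d, Nfatc1 and Ppargc1b. The smallest p was that of Mef2d, a myocyte enhancer factor, with 0.20 ± 0.08 (edgeR adjusted p = 0.498). Muscle oxidative isoforms had 1 of 10 above 0 (median -0.18) and 1 at that mark, Ldhb, the heart form of lactate dehydrogenase, with -0.53 ± 0.23 (edgeR adjusted p = 0.513).

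Markers of other striated and neighbouring cells were read in the same libraries. The 13 cardiac markers summed to 37.0 to 189 CPM in sham and 49.96 to 270 CPM in AVF-CKD, highest in sham 5 and in AVF-CKD 2 and 6. Myh6, Nppa, Nppb, Myl7 and Hcn4, which mark heart muscle, were below 1 CPM in all 12 libraries, and Myh6 reached at most 0.324 CPM. Other cardiac markers of the list were higher. Tnni3 ran from 2.72 to 6.32 CPM, Ryr2 from 0.452 to 2.79 CPM and Mybpc3 from 0.282 to 1.645 CPM. The sum rested largely on Actc1, Myl4, Sln and Tnnt2, which developing or slow skeletal fibres also express, and in some libraries on Gja5. Gja5 ran from 2.99 to 21.4 CPM and was the largest term in AVF-CKD 5, at 15.6 CPM. The 8 smooth muscle markers summed to 1814 to 2496 CPM in sham and 1193 to 2296 CPM in AVF-CKD. They include Des, which skeletal fibres also make and which ran from 90.5 CPM in AVF-CKD 5 to 957 CPM in AVF-CKD 2. Without Des the sum was 1360 to 2210 CPM in sham and 1003 to 1800 CPM in AVF-CKD. The 8 endothelial markers summed to 1191 to 1658 and 1017 to 1611 CPM, and the 7 nerve and Schwann cell markers to 202 to 264 and 183 to 286 CPM. White and brown fat markers summed to 193 to 1046 and 136 to 346 CPM, with sham 6 highest, and the 8 salivary and neck gland markers to 17.2 to 76.5 and 12.7 to 24.5 CPM, with sham 6 again highest. The largest term of the gland sum was Amy1 in every library (9.14 to 45.8 CPM), and Bhlha15, Smr3a and Prol1 were below 1 CPM throughout. Krt5 and Krt14 stood at 7.04 and 6.37 CPM in sham 6 and at no more than 0.217 CPM in any other library. The part of these tissues in the members' values was not tested.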

How the data were processed

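RNA of 12 mouse vein samples was made into TruSeq libraries, per the labels' protocols. The deposited table holds, by gene and library, whole-number read counts and RPKM. GRCm38, TopHat2 2.1.0, featureCounts and edgeR stand in the submitters' processing notes; the annotation used and the strand setting were not given in the sources used here. RPKM values, made by the authors with a library total of 1.15 to 1.19 times the summed counts, served for levels between genes and entered no test.

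Groups and numbers came from the sample titles. The members, gene lists and marker lists were chosen with earlier results of these data known. The deposited counts passed filterByExpr by group (18965 genes), TMM scaling and a quasi-likelihood F-test on the group (edgeR 4.0.16, R 4.3.3). P-values were adjusted over all genes by Benjamini-Hochberg, with calls under 0.05. The SE of a fold change is its size over the square root of F. The common dispersion of 0.0588 corresponds to 24.2% variation between libraries. For log2 CPM the prior count was 2. A count of 0 allows up to 3 counts, for counting error only. Permutation tests of correlations were two-sided.

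Fold changes were given for 20 members set by name, of which Myh7 was not tested. From the other lists the most abundant gene and that with the smallest p could be named, which was done for both in 2 lists and for the smallest p in another 2, and other named values are examples or were chosen after they were seen. Positions are those of the deposited table. Exon overlap and shared 50-base stretches were computed on GENCODE M21, which held all 41 members. Counts of libraries differed by more than sampling in all 66 pairs, with chi-square over its degrees of freedom at 47.6 to 211. Per-sample columns of other series numbered 0. Alternatives were RLE factors, library totals, no filter, DESeq2 1.42.0, voom with sample weights in limma 3.58.1, the title number as a block, and leaving out each library. A Ckm term, alone and with each library left out, was added after seeing the data. The fit was tested on simulated counts.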

Additional observations from a re-analysis of the deposited data

Results flagged for a closer look

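Of 82 pairs of a member and a group, 28 held a library farther from the rest than Dixon's 95% criterion for 6 samples allows. The criterion was applied to CPM, not to log2 CPM, and in each of the 28 the far library was the highest of its group. Chance marks about 5% of groups only where values are normally distributed, which CPM with such wide spans need not be. The count of 28 therefore cannot be set against that rate. Members that vary together mark the same library repeatedly, so these are not independent.

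Sham 5 was the far library for 10 members of the sham group. It stood at 254.5 CPM for Myh2 (others at most 68.3) and 287.8 CPM for Mb (others at most 112.8). Among the slow genes it reached 44.97 CPM for Tnnt1, 30.61 CPM for Tnni1, 37.9 CPM for Casq2 and 26.42 CPM for Myoz2. For Myh3 it reached 40.8 CPM, where the others were at 2.11 to 8.87 CPM. For Pax7, Myod1 and Myog it stood at 0.954, 5.51 and 22.58 CPM.

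Sham 4 was the far library for 8 members. It held 3525 CPM of Myh4 (others at most 1240), 1057 CPM of Actn3, 2070 CPM of Atp2a1 and 512.9 CPM of Mybpc2. It also held 260.2 CPM of Ryr1 and 9.152 CPM of Mstn. Of the slow genes it held 6.418 CPM of Myh7 and 3.406 CPM of Myl3, which were near 0 in the other sham libraries, at no more than 0.362 and 0.694 CPM.

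AVF-CKD 2 was the far library of its group for 10 members, all of the adult fast pattern. Ckm stood at 1655 CPM there (others at most 579.9), Tnnt3 at 1482 CPM, Mylpf at 1195 CPM, Myl1 at 1199 CPM and Pvalb at 1159 CPM. Tnni2 stood at 669.3 CPM, Tnnc2 at 863.1 CPM, Actn3 at 876 CPM, Mybpc2 at 438.5 CPM and Pgam2 at 112.3 CPM.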

How the results depend on the processing

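No member was called under any of the 31 alternatives, and the genes Myh3, Myh8, Tnni1, Tnnt1, Casq2, Pax7, Myod1, Myog (above 0), Aqp4 and Mstn (below 0) kept their direction in all of them. DESeq2 called 51 genes higher and 30 lower, none of them members, where edgeR called 0 in either direction (1772 at an unadjusted p below 0.05). Leaving out AVF-CKD 3 gave 1 gene called higher, no member, and the other omissions 0, as did each with the Ckm term. The median log2 fold change of the fibre members ran from -0.79 without AVF-CKD 2 to 0.31 without sham 4. The same omissions set the ends of the ranges of Ckm (-0.96 to 0.22), Acta1 (-0.69 to 0.35), Myh4 (-1.05 to 0.41), Mylpf (-0.87 to 0.11), Tnni2 (-0.90 to 0.18) and Tnnt3 (-0.92 to 0.19). Myh1 ran from -0.012 without AVF-CKD 2 to 0.77 without sham 5, and Mb from -0.16 to 0.90 with the same omissions. Myh2 was lowest, at -2.03, without AVF-CKD 6. Acta1 turned to 0.093 with limma voom. With the Ckm term Acta1 was 0.23 and Myh4 0.18. Ckm, its own covariate, was near 0 by construction (5.59e-05 ± 0.057, SE). With that term and each library left out, Acta1 ran from 0.104 to 0.41, Myh4 from 0.077 to 0.29, Tnni2 from -0.12 to 0.024, Tnnt3 from -0.071 to 0.054, Myh2 from -1.71 to 0.21, Myh1 from 0.34 to 1.05 and Mb from 0.050 to 1.05. The upper ends came without sham 5, for Myh4 without sham 4. Members at an unadjusted p below 0.05 numbered 11 without sham 5 (10.4% of all genes) and 1 to 4 without any other library. The causes were not tested.

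The labels do not say that the title numbers pair the libraries. Same-numbered deviations correlated at -0.03, 0.24, 0.28, -0.11, -0.10 and 0.14, values that were not tested and cannot decide whether the numbers pair them. Deviations matched their own number best for number 3 alone. With the replicate block 0 genes were called, 1 member passed an unadjusted p of 0.05, the fibre median was -0.08 and Acta1 was 0.038. The slow share of adult myosin ran from 0.0303% without sham 3 to 0.0783% without sham 6, and from 0.00966% without AVF-CKD 4 to 0.0378% without AVF-CKD 2. Low counts limit Myh7, Myl2, Myl3 and Pax7.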
